A study of Mus musculus with 6 samples.

Results

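The mouse Eph receptor genes are described here by the H3K9me3 peaks that were present in wild-type (WT) Bergmann glia (BG) and absent in Setdb1 mutant (MT) BG. BG are astroglia whose radial fibres guide granule cells through the cerebellar cortex. Setdb1 is an enzyme that adds methyl groups to lysine 9 of histone H3, and the trimethylated form, H3K9me3, is typical of silenced chromatin. The members were 10 genes, Epha3, Epha4, Epha5, Epha6, Epha7, Epha8, Ephb1, Ephb2, Ephb3 and Ephb4, and a peak was counted at a member when the authors named that gene as the one with the nearest transcription start site (TSS). By this rule 44 of 34673 peaks lay at 8 of the 10 members. The other two, Epha8 and Ephb3, had 0 peaks.

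The list came from chromatin immunoprecipitation with sequencing (ChIP-seq) of BG from C57BL/6 mice at postnatal day 10, with 2 libraries from WT BG, 2 from MT BG and 2 control libraries. The labels call the controls input and also name IgG, and they do not give the genotype of the control BG. The labels do not name the Cre line behind the MT BG. By the study's own account the loss of H3K9me3 was in BG with floxed Setdb1 and mGFAP-Cre, which acts in most neural cells of the cerebellum other than Purkinje cells. For the study's RNA-seq such BG were sorted by GFP driven from the Nestin promoter. Only 1 merged list was analysed, with no value per library, so no level of the mark in WT or MT BG, no spread between libraries and no test of WT against MT BG can be given, and the depth is unknown. The identity of the cells and the loss of Setdb1 cannot be checked from the list. A mark carried by all BG and a mark carried by a part of the cells cannot be told apart in such pooled chromatin.

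Eph receptors are receptor tyrosine kinases that sit in the cell membrane and are bound by ephrins on the surface of a neighbouring cell. EphA receptors mainly bind ephrin-A ligands, which are held in the membrane by a lipid anchor, and EphB receptors mainly bind ephrin-B ligands, which span it. Signals run into both cells at the contact and are known for repelling growing axons, setting up ordered neural maps, guiding migrating cells and keeping tissue compartments apart.

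The EphA and EphB members differed in where their peaks lay. Of 31 peaks at EphA members, 30 were intergenic (96.8%, 95% interval 83.8 to 99.4%) and 27 had their centre on a repeat (87.1%, 71.1 to 94.9%). Of 13 peaks at EphB members, 2 were intergenic (15.4%, 4.3 to 42.2%) and 3 lay on a repeat (23.1%, 8.2 to 50.3%). The whole list lay between them, with 59.4% of its peaks intergenic and 54.0% on a repeat. Among the intergenic peaks of the list alone 65.2% were on a repeat. The intervals of the EphA and EphB shares did not overlap in either measure. They are Wilson intervals, which cover counting error only. Peaks around 1 gene share their surroundings and are not replicates, so no test of this difference was made.

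The sequences below show both situations, as the 300 bases around the centre of single peaks on the plus strand of the RefSeq mouse genome (GRCm38.p6, the same build as mm10), with peaks numbered by position within each gene. The first lies on the third exon of Ephb4 (chr5:137354291-137354590), which encodes part of the extracellular domain that holds the ephrin, and its 277 bases in capitals are coding.
Ephb4 peak 2: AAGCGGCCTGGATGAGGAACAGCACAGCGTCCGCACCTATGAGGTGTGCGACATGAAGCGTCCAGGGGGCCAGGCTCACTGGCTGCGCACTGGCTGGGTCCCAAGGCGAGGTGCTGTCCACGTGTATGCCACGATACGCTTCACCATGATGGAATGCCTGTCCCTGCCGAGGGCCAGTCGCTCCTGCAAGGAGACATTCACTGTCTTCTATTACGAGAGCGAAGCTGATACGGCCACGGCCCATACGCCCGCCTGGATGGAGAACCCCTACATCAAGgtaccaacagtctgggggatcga
The next windows lie in introns of EphB genes, and the centre of each peak was outside any listed repeat. They are 1 example each from Ephb4, Ephb2 and Ephb1 and not all such peaks. The capitals are the letters TTGGCA, read on either strand, which is the single-subunit site of nuclear factor I (NFI) proteins such as Nfix, the partner of Setdb1 in the study's model. The windows are chr5:137352621-137352920, chr4:136760749-136761048 and chr9:102348545-102348844, and the last of them holds no such letters. Peaks 2 and 3 of Ephb2, not shown, hold none either, so these examples do not show how often the letters occur.
Ephb4 peak 1: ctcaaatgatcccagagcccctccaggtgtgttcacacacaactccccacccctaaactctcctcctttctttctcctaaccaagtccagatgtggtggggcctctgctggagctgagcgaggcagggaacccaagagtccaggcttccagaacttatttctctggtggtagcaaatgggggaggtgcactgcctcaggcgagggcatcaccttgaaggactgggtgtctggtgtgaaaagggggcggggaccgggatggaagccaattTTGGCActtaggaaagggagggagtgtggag
Ephb2 peak 1: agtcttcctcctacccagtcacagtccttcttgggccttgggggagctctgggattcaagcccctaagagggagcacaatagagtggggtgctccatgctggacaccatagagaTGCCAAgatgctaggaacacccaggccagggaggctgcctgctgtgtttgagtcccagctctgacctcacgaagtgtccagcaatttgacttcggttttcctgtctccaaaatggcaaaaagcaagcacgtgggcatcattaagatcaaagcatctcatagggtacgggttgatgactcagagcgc
Ephb1 peak 2: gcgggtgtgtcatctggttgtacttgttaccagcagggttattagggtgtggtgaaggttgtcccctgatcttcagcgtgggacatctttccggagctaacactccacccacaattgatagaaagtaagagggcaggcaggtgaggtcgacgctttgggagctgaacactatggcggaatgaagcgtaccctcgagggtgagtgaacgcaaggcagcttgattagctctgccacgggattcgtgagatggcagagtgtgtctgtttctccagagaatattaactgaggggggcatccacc
Of the 4 EphA peaks with a centre outside repeats, those at Epha5, Epha6 and Epha7 that lie closest to the start site of their gene are shown in the same way, at chr5:84163282-84163581, chr16:60620150-60620449 and chr4:28351893-28352192. The first is the single EphA peak that the authors placed in an intron and holds TTGGCA 3 times.
Epha5 peak 1: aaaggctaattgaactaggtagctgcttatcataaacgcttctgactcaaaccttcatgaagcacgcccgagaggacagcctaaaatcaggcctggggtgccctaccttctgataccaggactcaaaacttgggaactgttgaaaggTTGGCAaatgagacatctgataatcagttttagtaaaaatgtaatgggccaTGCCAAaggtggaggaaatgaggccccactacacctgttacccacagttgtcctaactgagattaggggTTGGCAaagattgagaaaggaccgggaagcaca
Epha6 peak 1: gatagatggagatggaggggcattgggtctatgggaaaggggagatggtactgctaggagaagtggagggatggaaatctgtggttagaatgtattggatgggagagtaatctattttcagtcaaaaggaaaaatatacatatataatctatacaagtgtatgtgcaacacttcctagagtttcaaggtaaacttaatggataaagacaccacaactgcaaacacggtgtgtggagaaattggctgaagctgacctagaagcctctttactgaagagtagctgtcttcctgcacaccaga
Epha7 peak 2: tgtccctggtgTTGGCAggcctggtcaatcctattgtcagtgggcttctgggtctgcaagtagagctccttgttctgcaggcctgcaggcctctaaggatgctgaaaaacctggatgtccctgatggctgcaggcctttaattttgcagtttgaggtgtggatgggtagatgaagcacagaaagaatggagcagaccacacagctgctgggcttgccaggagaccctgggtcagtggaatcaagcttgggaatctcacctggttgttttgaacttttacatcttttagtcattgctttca
The last pair, each of 150 bases, are EphA peaks on simple repeats at chr16:63460725-63460874 and chr1:77770409-77770558. Capitals mark the unit in the listed name of the repeat, TCC in the first (36 units) and CAGAG in the second (24 units). In the second an unmarked g separates the marked units.
Epha3 peak 3: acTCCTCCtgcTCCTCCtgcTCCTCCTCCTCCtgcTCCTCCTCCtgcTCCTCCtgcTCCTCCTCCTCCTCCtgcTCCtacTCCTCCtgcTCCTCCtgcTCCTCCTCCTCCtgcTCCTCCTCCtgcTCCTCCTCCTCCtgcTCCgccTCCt
Epha4 peak 3: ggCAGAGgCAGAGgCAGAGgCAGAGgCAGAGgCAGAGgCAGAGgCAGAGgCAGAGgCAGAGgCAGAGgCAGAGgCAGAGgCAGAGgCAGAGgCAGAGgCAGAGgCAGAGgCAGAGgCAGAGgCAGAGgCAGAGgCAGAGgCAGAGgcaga

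**Figure D1:**
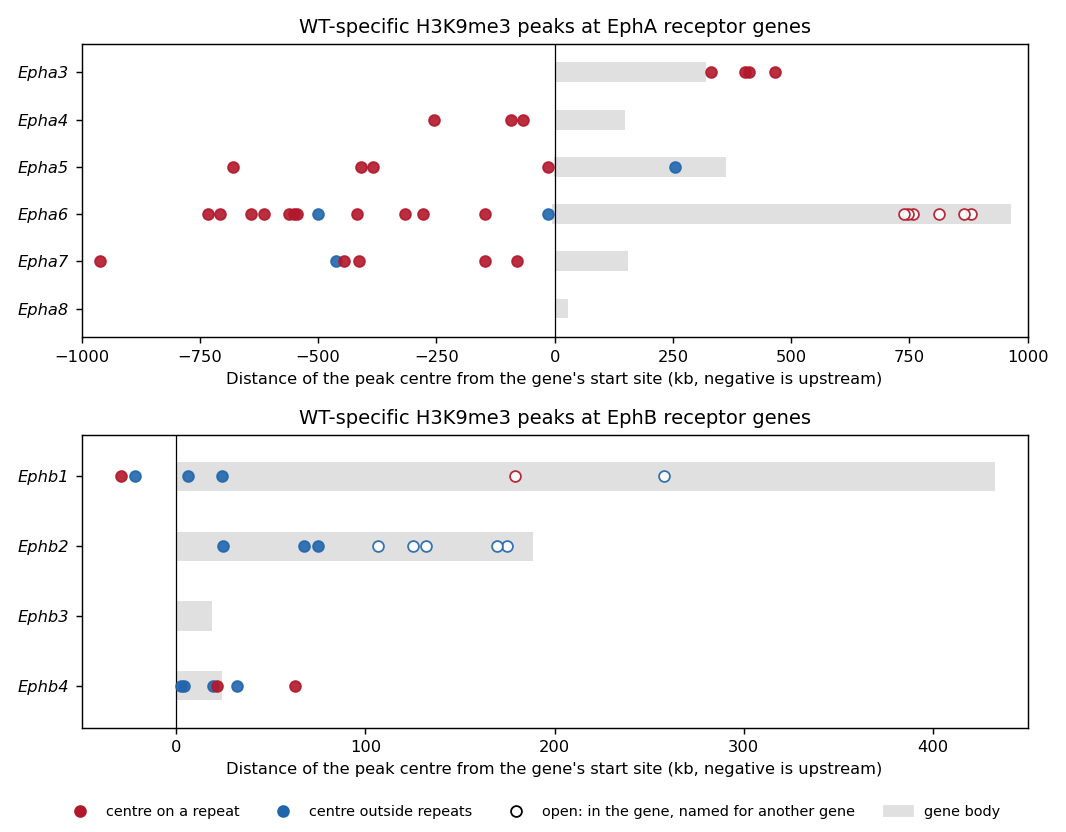
Each point is a WT-specific H3K9me3 peak, placed by the distance of its centre from the start site of the gene (kb, negative is upstream), with the gene body as a grey bar, red for a centre on a repeat, blue for a centre outside repeats and open for peaks inside the gene that the authors named for another gene. All but 1 of the filled EphA points lie outside the grey bars, while 9 of the 13 filled EphB points lie inside them.

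Distance to the start site followed the same division. The median distance was 410.2 kb for EphA peaks (95% interval 278.8 to 500.1 kb), 24.1 kb for EphB peaks (6.00 to 62.9 kb) and 37.4 kb for the whole list. A distance over 100 kb was found for 26 of 31 EphA peaks, for 0 of 13 EphB peaks and for 26.1% of the list. Within 10 kb of the start site lay 0 EphA peaks, 3 EphB peaks and 19.4% of the list. The rule of the nearest start site limits these distances, since a peak farther away takes another gene's name. The stretch nearer to the member's start site than to any other gene's was 350.2 to 1573.7 kb for EphA members with peaks. For EphB members with peaks it was 70.1 to 131.8 kb. Peaks inside Ephb1 and Ephb2 but named for another gene lay up to 257.85 and 175.11 kb from the member's start site. None of the 44 peaks was in the promoter class, which held 0.8% of the list, and with 44 peaks a share of up to 8.0% lies within the interval. The members therefore had no listed peak on a start site, and the closest was 2.66 kb into Ephb4.

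A gene with more empty sequence around it collects more peaks by the rule of the nearest start site. The stretch nearer to a member's start site than to any other gene's was 5409.3 kb in sum for the 6 EphA members and 353.6 kb for the 4 EphB members. The members' own bodies made up 24.7% of it for EphA and 49.5% for EphB members. Repeat-masked bases made up 32.3 to 43.2% of it at Epha3, Epha5, Epha6 and Epha7, 27.8% at Epha4, 9.7% at Epha8 and 19.1 to 29.3% at EphB members. Their part in the class and repeat shares was not tested. Per length of that stretch the order turned, with 5.73 peaks per Mb for EphA members, 36.76 for EphB members and 12.69 over the chromosomes for the whole list. Across the 10 members the number of named peaks ran with the length of the stretch (Spearman's rho = 0.62, Pearson's r = 0.73, as a description across genes). Being named at 1 or more peaks was common in the list, since 49.1% of 21774 protein-coding genes were, beside 8 of 10 members. The members are long genes, with a median of 171.6 kb against 17.2 kb for all protein-coding genes.

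Epha6 encodes a receptor found mainly in the nervous system and had the most peaks of the members, 13, a number reached by 143 protein-coding genes (0.66%). The stretch nearest to its start site was also the longest of the members, 1573.7 kb. Per length of it Epha6 had 8.26 peaks per Mb, below the 12.69 of the whole list over the chromosomes. All 13 lay upstream of the gene and were intergenic, from 9.39 to 727.84 kb before its 5′ end. Repeats of the ERVK group of endogenous retroviruses, listed in the long terminal repeat (LTR) class, held 7 of the centres. L1 elements, the mobile LINEs of mammals, held 4. The closest peak (chr16:60620049-60620549) scored 7.38 and lay outside repeats, 14.77 kb upstream of the start site. The peak with the highest score, 14.4, a value reached by 4.67% of the list, lay on the ERVK repeat IAPLTR2a2_Mm (chr16:61312558-61313183) 707.34 kb upstream. A second IAPLTR2a2_Mm copy 278.84 kb upstream scored 7.06 and had the highest ratio of observed to expected CpG of the 44 peaks, 0.724, against a median of 0.205 in the list. The other ERVK peaks lay on IAPLTR4 (score 6.42), ETnERV3-int (7.38 and 6.1), MMERVK10D3_LTR (6.74) and RLTR10D2 (6.1). These are uncommon in the list, with 55 peaks on IAPLTR2a2_Mm, 18 on IAPLTR4, 14 on ETnERV3-int, 5 on MMERVK10D3_LTR and 6 on RLTR10D2. The L1 peaks lay on Lx3A (7.06 and 6.1), Lx3_Mus (6.42) and L1Md_T (5.78), and a peak outside repeats 500.09 kb upstream scored 8.34. The scores of the 13 peaks ran from 5.78 to 14.4 with a median of 6.74. At or above the median of the list, 7.06, were 6 of the 13, beside 51.7% of the list.

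Epha7, whose receptor takes part in sorting axons and cortical cells, had 6 intergenic peaks, all upstream, from 80.44 to 960.02 kb before the gene. The closest (chr4:28732371-28732871) lay on the L1 element Lx2B2 and scored 6.1. The highest score, 7.7, belonged to the farthest of them, on MTA_Mm-int (chr4:27852801-27853301), a repeat of the ERVL-MaLR group. L1 elements held 3 of the 6 centres, and the peak outside repeats 461.09 kb upstream scored 7.38. At 413.97 kb lay an Lx copy and at 146.12 kb an L1Md_T copy, both with a score of 6.1. A further peak (chr4:28366673-28367173, score 6.74) was listed on the repeat RMER1B, while the RefSeq sequence has 0.0% of its bases masked as repeat. The masked share and the listed repeat come from different annotations.

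Epha5, a receptor for ephrin-A ligands in the forebrain and retina, had 5 peaks, 1 of them inside the gene. That peak (chr5:84163181-84163681) lay in intron 3 of 15, 253.95 kb past the start site, outside repeats and with 0.0% masked bases, and had a low score of 5.78, which 94.66% of the list reached. The 4 others were upstream. The closest to the start site (chr5:84431260-84431760) lay 14.13 kb before it on the ERVK repeat RMER13B, within the body of the predicted gene Gm42163, and scored 7.38. A pair of L1 copies 23.66 kb apart followed, L1Md_F2 (chr5:84801631-84802262) with the gene's highest score, 8.99, and L1Md_F (chr5:84825356-84825856) with 7.38. The farthest (chr5:85097607-85098107) lay 680.48 kb upstream on the SINE B2_Mm2 and scored 5.78.

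Epha3, another receptor for ephrin-A ligands, had 4 peaks, which all lay beyond the 3′ end of the gene. The closest to the gene (chr16:63532308-63532808) was 10.97 kb past its end, on the L1 element Lx2A, with a score of 7.7. Next came the peak with the highest score of the 44, 26.3 (chr16:63460325-63461274), which is 949 bp wide and lay 82.73 kb past the end on a (TCC)n simple repeat. Its GC content, 64.2%, was also the highest of the members' peaks, and 0.74% of the list had a score as high. It was the only peak of the whole list with the exact repeat name (TCC)n, and 297 peaks of the list lay on simple repeats of any name. An L1Md_T copy 6.8 kb farther from the gene (chr16:63453749-63454249) scored 6.74. The last peak (chr16:63397547-63398186), on RMER1B, scored 8.34 and lay 145.67 kb past the end.

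Epha4, which binds ephrins of both classes and is known for stopping axons at the midline of the spinal cord, had 3 intergenic peaks, all upstream and on repeats. The closest (chr1:77580974-77581608) lay 66.2 kb before the start site on a B2_Mm2 SINE and had the highest score, 9.63. It was inside the predicted gene Gm32793. A second (chr1:77607416-77607916) lay 92.58 kb upstream on the L1 element Lx, inside the predicted gene Gm32974, and scored 6.1. The third (chr1:77770233-77770733), 255.4 kb upstream on the (CAGAG)n repeat, scored 7.7.

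For Epha8, which encodes a receptor described in the midbrain and retina, the nearest peak of the list lay 38.88 kb from its start site and was named for another gene. Ephb3, whose receptor guides commissural axons, had its nearest peak at 31.44 kb, also named for another gene.

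Ephb4, best known as the receptor for ephrin-B2 on venous endothelium, is the shortest member with peaks (24.4 kb) and had 6, which 4.57% of protein-coding genes reached. Of these, 4 had their centre inside the gene. The first (chr5:137352520-137353020) lay in intron 1 of 16, 2.66 kb past the start site, and scored 7.38. The second (chr5:137354190-137354690) covered 288 coding bases of exon 3 of 17 and scored 7.06. The third (chr5:137369318-137369945), centred in intron 12, also covered 216 coding bases and had the highest score of the gene, 9.63. The fourth (chr5:137371478-137371978), on the SINE B4A in intron 14, scored 6.42. Past the 3′ end, by 7.96 and 38.5 kb, lay a peak classed as an exon (chr5:137382154-137382816, score 9.31) and an intron peak on B2_Mm2 (chr5:137412770-137413270, score 6.1). Both were in the body of Zan, which encodes the sperm protein zonadhesin, so the exon class of the first is not an exon of Ephb4.

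Ephb2, whose receptor is known at excitatory synapses and on commissural axons, had 3 named peaks, all in introns and outside repeats. A pair scored 10.3, a value reached by 13.82% of the list, and these were among the widest of the members' peaks, 809 bp in intron 3 of 15 (chr4:136760494-136761303) and 849 bp in intron 1 (chr4:136810708-136811557), the latter being the closest to the start site at 24.88 kb. The other (chr4:136768131-136768631), in intron 3, scored 6.1.

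Ephb1, which directs retinal axons that stay on their own side of the brain, had 4 named peaks, all within 29.17 kb of the start site. In intron 1 lay a peak 6.00 kb past it (chr9:102348444-102348944, score 5.78) and another 24.14 kb past it (chr9:102330298-102330798, score 7.7). Upstream lay a peak at 21.93 kb outside repeats (chr9:102376370-102376870, score 6.1) and 1 at 29.17 kb on the ERVL-MaLR repeat MTC (chr9:102383484-102384237), which had the highest score of the gene, 8.34.

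**Figure D2:**
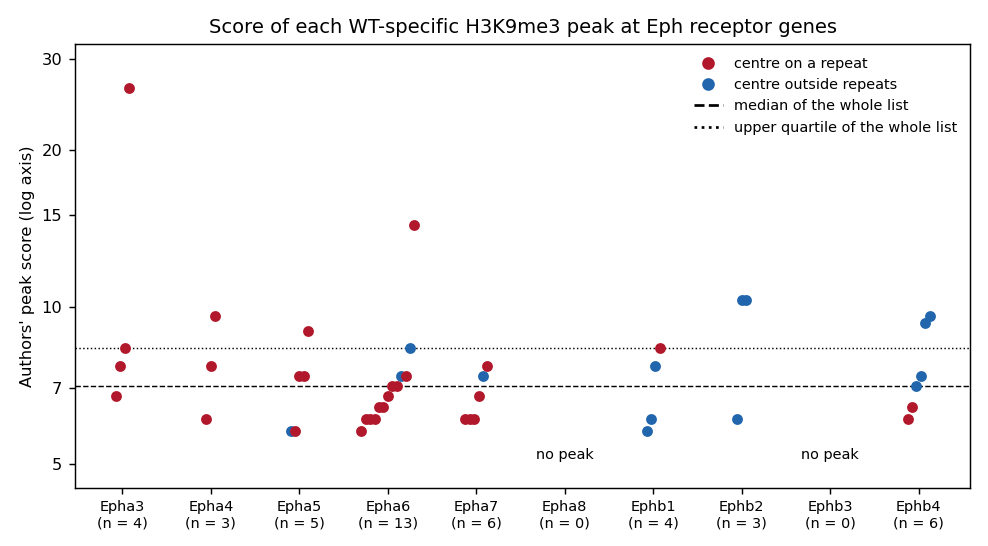
Each point is the authors' score (log axis) of 1 WT-specific H3K9me3 peak, by the gene it was named for, red on a repeat and blue outside repeats, with the median (7.06, dashed) and upper quartile (8.34, dotted) of the whole list. Most points lie between 5.78 and 10.3, with the (TCC)n peak of Epha3 at 26.3 and an IAPLTR2a2_Mm peak of Epha6 at 14.4 above them.

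The scores of the members' peaks lay near those of the list. The score came from the authors' peak caller, the sources used here do not state its scale, and many peaks share a value. Its median was 7.06 for the 44 peaks (95% interval 6.42 to 7.38), 7.06 for EphA peaks (6.1 to 7.38), 7.38 for EphB peaks (6.1 to 9.63) and 7.06 for the list. At or above the upper quartile of the list (8.34) were 6 of 31 EphA and 5 of 13 EphB peaks, against 27.4% of the list. Width was also alike, with 33 of 44 peaks at 500 bp, the width of 77.1% of the list.

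Counting by position in place of the authors' gene name changed which members stood out. Inside the bodies of the members were the centres of 23 peaks, of which 13 had been named for another gene. Epha6 held 6 such peaks, all in its 3′ part (introns 11, 13 and 14 of 17) and named for Arl6, a small GTPase gene of the Bardet-Biedl syndrome group. All 6 lay on repeats, 5 on L1 elements and 1 on MTD. The highest of them, 20.2, on L1Md_F2 (chr16:59793455-59794221), was above every score among the peaks named for Epha6. Ephb2 held 5 more, named for Lactbl1, with scores of 5.78, 11.2, 7.06, 7.38 and 10.9, all outside repeats. The 5.78 peak (chr4:136660651-136661151), centred in intron 10, covered 248 coding bases, and the 11.2 peak (chr4:136666338-136666968) lay in intron 9. Ephb2 thus had 8 peaks in its body and none of them on a repeat. Ephb1 held 2 more in intron 3 of 15, named for Mir7243, with scores of 7.7 (chr9:102096590-102097090) and 6.74 (chr9:102175327-102175827), the second on the DNA transposon Tigger9a. No centre lay in the bodies of Epha3, Epha4, Epha7, Epha8 or Ephb3. A peak in the body was found in 5 of 10 members, and in 30.8% of protein-coding genes, most of which are shorter than the members. Genes of like length, within a factor of 1.2, differed by member in how often they lacked a body peak. The share without one was 3.2% for the length of Epha6, 7.3% for Ephb1, 9.4% for Epha5 and 12.3% for Epha3. It was 23.9% for Ephb2, 25.6% for Epha7, 26.8% for Epha4 and 67.8% for the short Ephb4.

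Per length of gene body the EphB members held more peaks. The 16 centres in EphB bodies gave 24.08 per Mb (95% exact Poisson interval 13.76 to 39.1) and the 7 in EphA bodies 3.53 per Mb (1.42 to 7.27), with 13.15 per Mb over 13918 protein-coding genes of at least 10 kb. Ephb4 had 163.84 per Mb (44.64 to 419.5), Ephb2 42.37 (18.29 to 83.5), Ephb1 9.25 (2.52 to 23.68), Epha6 6.19 (2.27 to 13.47) and Epha5 2.75 (0.07 to 15.35). No neighbours in this order differ beyond their intervals. For Epha3, 320.6 kb long, 0 peaks allow at most 11.5 per Mb, while for the short genes Epha8 and Ephb3 they allow up to 134.43 and 197.37, so a density like that of Ephb2 could not have been told from 0 there.

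**Figure D3:**
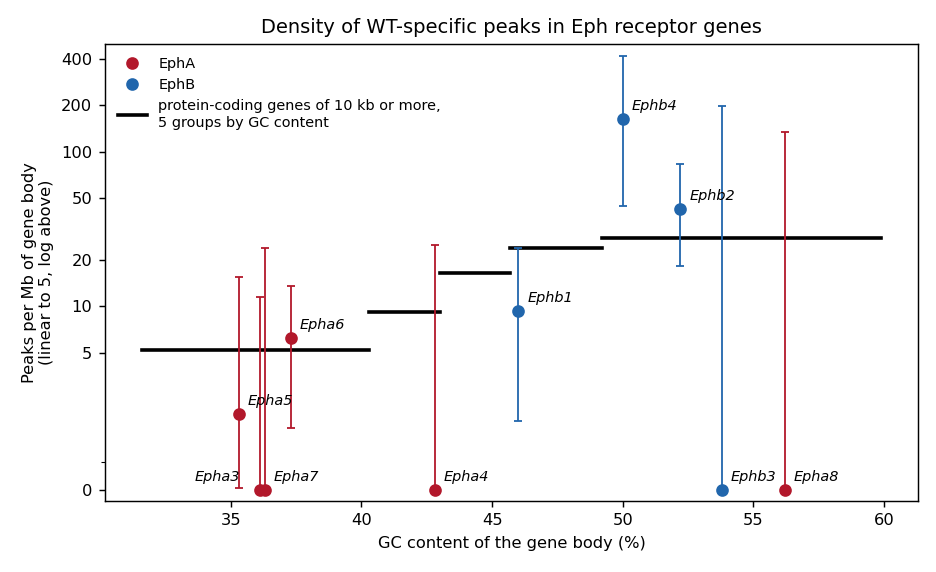
Points are the WT-specific peaks per Mb of gene body of each member (linear to 5, log above) against the GC content of the body (%), red for EphA and blue for EphB, with 95% Poisson intervals, and black lines are 5 equal groups of protein-coding genes by GC content. The black lines climb from 5.23 to 27.54 peaks per Mb, and the EphA members other than Epha8 lie in the GC-poor groups.

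GC content moved with this division. The bodies of Epha3, Epha5, Epha6 and Epha7 had 36.1%, 35.3%, 37.3% and 36.3% GC and that of Epha4 42.8%, while Ephb1, Ephb4, Ephb2 and Ephb3 had 46.0%, 50.0%, 52.2% and 53.8%. Epha8 was apart from the other EphA members with 56.2%. The EphA genes outside the members, Epha1, Epha2 and Epha10, had 49.0%, 53.9% and 51.2%. Over all protein-coding genes of at least 10 kb in 5 groups of rising GC content, the density of body peaks was 5.23, 9.2, 16.46, 23.8 and 27.54 per Mb. The intervals of Epha5 and Epha6 include the value of the group they belong to (5.23), that of Ephb2 includes the value of its group (27.54), that of Ephb1 lies just below its group (23.8) and that of Ephb4 lies above its group (27.54). The part of GC content in the difference between EphA and EphB members was not tested.

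**Figure D4:**
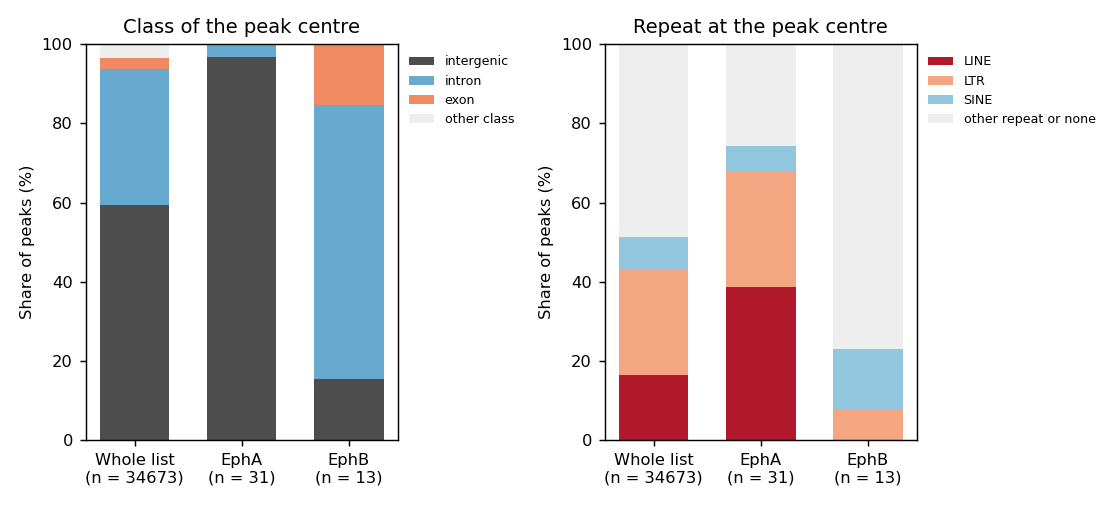
Stacked bars give the share of peaks (%) by the class of the centre (left) and by the repeat at the centre (right) in the whole list (34673 peaks), at EphA members (31) and at EphB members (13). The EphA bar is almost wholly intergenic and holds LINE and LTR repeats for the most part, while the EphB bar is mostly intron and without LINE peaks.

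L1 elements held 12 of 31 EphA centres (38.7%, 23.7 to 56.2%), 0 of 13 EphB centres (up to 22.8%), 16.3% of the list and 20.7% of its intergenic peaks. ERVK repeats held 8 EphA centres (25.8%, 13.7 to 43.2%), 7 of them at Epha6, 0 EphB centres (up to 22.8%), 13.0% of the list and 18.1% of its intergenic peaks. The ERVK intervals of the classes overlapped, and with 3 EphB peaks on any repeat the kinds of repeat can hardly be compared. L1Md_T, a young L1 type, was the most frequent single repeat along with B2_Mm2, each at 3 peaks. The 3 EphB repeats were MTC, B4A and B2_Mm2. Over the whole width of the peaks, repeat-masked bases made up a median of 83.2% in EphA peaks, 14.8% in EphB peaks and 29.8% in the list. The authors gave reads that match several places the single location with the best score, and the part of this choice in the position of peaks on repeats was not tested.

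In sequence, the median GC content was 48.1% for EphA peaks (45.5 to 49.3%), 52.4% for EphB peaks (47.3 to 56.1%) and 49.1% for the list. The letters TTGGCA, on either strand, were in 13 of 44 peaks (29.5%, 18.2 to 44.2%) and in 29.1% of the list, with 7 of 31 EphA (22.6%, 11.4 to 39.8%) and 6 of 13 EphB peaks (46.2%, 23.2 to 70.9%). In windows of equal length, the central 300 bp, they were in 20.5% of the members' peaks (11.2 to 34.5%) and 17.3% of the list. There they were in 12.9% of EphA peaks (5.1 to 28.9%) and 38.5% of EphB peaks (17.7 to 64.5%). In the same windows, of the 14 members' peaks with a centre outside repeats 6 held them (42.9%, 21.4 to 67.4%), against 17.7% of such peaks in the list. Of the 30 on repeats 3 did (10.0%, 3.5 to 25.6%), against 17.1%. Over the whole peaks the share outside repeats was again 42.9% (21.4 to 67.4%), against 29.4% in the list, which lies within the interval. On repeats it was 23.3% (11.8 to 40.9%), against 28.9%. No test of these shares was made. The full site of an NFI dimer, TTGGC and GCCAA 5 bases apart, was in 0 of 44 peaks and 13 of the list (0.038%). The EphA and EphB intervals for TTGGCA overlapped in both windows. Ephb4 peaks 5 and 6, which lie in the body of Zan, are among the EphB peaks that hold TTGGCA in both windows. Counted by position, it was in 5 of 16 peaks centred in EphB bodies (31.2%, 14.2 to 55.6%). For EphA bodies it was 2 of 7 (28.6%, 8.2 to 64.1%). In the central 300 bp these shares were 25.0% (10.2 to 49.5%) for EphB and 14.3% (2.6 to 51.3%) for EphA bodies.

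Among the partners of the receptors, 23 of 38 genes of a list of ephrins and signalling proteins were named at a peak (60.5%, beside 49.1% of protein-coding genes) and 18 had a peak in their body, as did 30.8% of protein-coding genes. The listed genes were 4.6 to 634.0 kb long, beside a median of 17.2 kb for protein-coding genes. Gene length was not taken into account in these shares. Of the 8 ephrin genes 3 had a peak, and of the 30 signalling genes 20 had. The genes with most were Efna5 with 15 peaks, Efnb2 with 14 and Tiam1 with 13. Whatever gene they were named for, 2 peaks lay in the body of Efna5, 0 in that of Efnb2 and 8 in that of Tiam1. Efna5 is an ephrin-A that binds most EphA receptors, Efnb2 is the main ligand of Ephb4, and Tiam1 activates the GTPase Rac downstream of ephrin signals.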

How the data were processed

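H3K9me3 ChIP-seq of BG was made with 2 WT, 2 MT and 2 control libraries. The authors aligned reads to mm10 with Bowtie2 (2.2.8), placed reads with several matches at 1 location, allowed a single tag at each position, ran HOMER (4.10.1) to find peaks, and kept those present in WT and absent in MT BG (versions from the submitters' processing notes). Whether the background of the call was input, MT BG or both is ambiguous in the file header, and the sources used here do not say how libraries were merged. Per the file header, the deposited table was annotated with HOMER. The deposited peak score was made by the authors with HOMER, on a scale not stated. The table also gives position, class, repeat and distance to the nearest TSS, with no value per library.

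Peaks were set on RefSeq gene models and bases of build GRCm38.p6. For all 44 peaks the recomputed nearest gene was the same, and for 40 the authors' distance was within 2 bp. Introns are those of 1 fixed RefSeq transcript of each Eph gene, also for peaks named for another gene. A peak was in a gene body when its centre was. Intervals (95%) are Wilson for shares, exact Poisson for densities and binomial for medians, and cover counting error only. No test was run, since there are no replicate values. Steps were tested on simulated data. The members and lists were chosen with earlier results of these data known. Named are all members, the other 4 Eph genes, genes that share a peak with a member, and the 3 genes of the partner list with most peaks. Python 3.11.15, pandas 2.3.3, scipy 1.17.1 and pysam 0.24.0 were used. Alternatives were score limits, assignment by gene body or recomputed TSS, repeats left out, Epha6 left out, merging of near peaks, overlap, window and motif.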

Additional observations from a re-analysis of the deposited data

How the results depend on the processing

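No paired analysis was possible because values per library were not analysed here, and for the same reason no library could be left out. Of 47 recomputed values, 30 moved by less than their counting interval or 1.5 times and 17 moved by more. The peak count, 44, became 24 at a score at or above the list's median, 11 at or above its upper quartile, 14 outside repeats, 24 when peaks in a member's body or the 5 kb to either side were counted whatever their gene name, and 23 when at least 50% of the peak had to be in the body. The share inside the body rose from 22.7% to 64.29% outside repeats and to 95.83% by body or 5 kb, where the alternative itself selects for position, and the share on repeats there was 33.33%. The median score became 7.7 and 9.63 under the score limits, which select for it. The median GC content became 52.39% (upper quartile), 52.3% (body or 5 kb) and 50.55% (outside repeats). Density in the bodies, 8.69 per Mb, became 4.91 and 2.644 under the score limits and 3.777 when only peaks assigned to the member by the recomputed TSS were counted. TTGGCA in 29.5% of peaks became 0 for the site of an NFI dimer. The division between the EphA and EphB members held in direction. At or above the median score 0 of 16 EphA and 6 of 8 EphB peaks were in the named gene's body. At or above the upper quartile 0 of 6 and 3 of 5 were, and without Epha6 16 of 18 EphA peaks lay on a repeat.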

Other observations

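Outside the 10 members, Epha2 and Epha10 were the other Eph receptor genes named at a peak, and Epha1 and Ephb6 had 0. Epha2, a receptor of epithelia, had 3 peaks, none of which lay on a repeat. They were 6.6 kb upstream of the start site (score 6.1), in intron 2 of 16 (score 6.1) and on exon 15 of 17 (chr4:141323204-141323829), where 194 coding bases were covered and the score was 11.2. The body of Epha2 has 53.9% GC. Epha10, whose receptor lacks kinase activity, was named at 1 peak 2.9 kb upstream on the ERVK repeat RMER6C (score 8.02). Its body (51.2% GC) held 2 peaks named for 1700125G02Rik, with scores of 8.66 and 7.06, and a peak 1.03 kb past its end was named for Cdca8 (score 7.7). The body of Epha2 held 71.01 peaks per Mb (8.6 to 256.52) and that of Epha10 55.14 (6.68 to 199.18), each from 2 peaks. The bodies of the EphA members held 3.53, so the division above describes the members and not all EphA genes.

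Another listed peak lay within 10 kb of 13 of the 44 (29.5%), against 33.3% of the list. The closest pair was at Ephb4, with 1.67 kb between the peaks of intron 1 and exon 3.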
